A study of Rattus norvegicus with 18 samples.

Results

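The diaphragm (DIA), the sheet of skeletal muscle that drives breathing, was compared between EAMG and control rats, all female and of the Lewis strain, where EAMG stands for experimental autoimmune myasthenia gravis. EAMG rats, 6 to 8 weeks old when immunized, received 40 µg of acetylcholine receptor (AChR) from Torpedo each, emulsified in complete Freund's adjuvant to which 0.5 mg of mycobacterium was added, and the muscle was taken at week 6. Control rats received the same adjuvant and mycobacterium without AChR, so both groups carry the effects of the adjuvant, and no untreated muscle was measured. By the paper, EAMG rats were weak and had lost weight at week 6, while control rats had gained weight. Effects of the weight loss and other effects of EAMG therefore cannot be told apart here. The comparison rests on 6 of the 18 arrays of the study, 3 DIA EAMG and 3 DIA control, named here by group and replicate number, and the other 12 arrays hold extensor digitorum longus (EDL) and extraocular muscle (EOM). The RNA of each array was a pool of rats, whose number is 4 to 5 (tissue) or 4 (array sample) in the methods and 3 in the labels. By the methods, the experiment was repeated to obtain the 3 replicates, but no source ties a replicate number to a run of it. The p values rest on a spread between pools taken over all 18 arrays, those of EDL and EOM included. They do not measure the spread between single rats. The array holds 31042 probe sets once its control features are set aside, and in 10745 the highest of the 6 DIA signals was 400 or more. These 10745 form the comparison and cover 7074 genes with a symbol of their own.

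In myasthenia gravis, antibodies against the AChR of the motor endplate, together with complement, damage the postsynaptic membrane and impair the transmission of nerve impulses to muscle. Immunization with AChR from the electric organ of Torpedo raises such antibodies in rats. The diaphragm is a mixed muscle of slow and fast fibres that contracts throughout life with each breath. Its fibres relax when a calcium pump returns calcium to the sarcoplasmic reticulum, a step that phospholamban restrains in slow fibres and that parvalbumin assists in fast fibres of rodents. All 16 markers of skeletal muscle fibres reached the minimum of 400, with a summed signal of 384886 to 430367 on EAMG arrays and 426454 to 436646 on control arrays.

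The arrays themselves differed in a few ways. The added poly-A control RNAs had a mean signal of 799.8 on DIA EAMG 2, against 11110 to 26835 on 16 of the other arrays, and the 3' to 5' signal ratio of GAPDH was 2.66 on DIA EAMG 3, against 1.19 to 1.33 on the other 5 DIA arrays. Correlation of log2 signals over the probe sets tested was 0.943 to 0.959 among EAMG arrays and 0.967 to 0.976 among control arrays. DIA EAMG 1 correlated more closely with the controls (mean r = 0.966) than with the other EAMG arrays (mean r = 0.956), whereas DIA EAMG 2 and DIA EAMG 3 stood further from the controls (mean r = 0.926 and 0.932). The part these features play in the results was not tested.

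The first question was how many transcripts differed in EAMG diaphragm. The change is the difference between mean log2 signals, EAMG minus control, tested with limma while fitting all 18 arrays together, and a probe set passed at a Benjamini-Hochberg adjusted p under 0.05. Of the 10745 probe sets, 230 rose (2.14%) and 155 fell (1.44%), together 3.58%, and 69 of the rises and 59 of the falls were 2-fold or larger. Among named genes 2.35% rose and 1.23% fell, also 3.58% in all. These shares are the background for each count of gene list members given below. The gene lists were written with earlier results of these data known. The median change over all probe sets was 0.02 on the log2 scale, and 53.1% of them lay above 0. EAMG and control arrays did not overlap for 382 of the 385 that passed, and for 25.4% of all probe sets tested. By a rule on ratios, which asks that 7 or more of the 9 pairings of EAMG with control arrays differ 2-fold or more in one direction, 48 probe sets were higher (0.447%) and 34 lower (0.316%). In whole muscle, fewer cells of a type and less RNA per cell cannot be told apart.

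The number of calls depended on single arrays. Without DIA EAMG 1, the array nearest to the controls, 484 probe sets rose and 404 fell. Without DIA EAMG 2, 39 rose and 24 fell, and without control 1, 36 and 36. Leaving out DIA EAMG 3 gave 70 rises and 71 falls, control 2 gave 135 and 76, and control 3 gave 80 and 57. In a fit of the 6 DIA arrays alone, 26 rose and 23 fell, 44 of which were also called with all 18 arrays. Without a signal minimum, over 31042 probe sets, 20 rose and 16 fell. Without both arrays of low poly-A signal, DIA EAMG 2 and EOM EAMG 2, an alternative chosen after seeing the data, 35 rose and 25 fell. A group of 27 rises (0.251%) and 19 falls (0.177%) passed in the full fit and in each of the 6 fits that left out 1 DIA array. It included Adamts8, Fkbp5, Fmo2, Arrdc2, Errfi1 and Tpd52l1 among the rises of largest size, and Pln, Hbb, Alas2, Spmip6, Hba-a3, Apln and Pvalb among the falls. Of these, Alas2, Spmip6 and Apln reached the signal minimum on control arrays alone, and Adamts8 on EAMG arrays alone. Without a minimum, Arrdc2, Hbb and Spmip6 did not pass (limma adjusted p = 0.0663, 0.064 and 0.0724). In DIA alone, Hbb, Alas2, Spmip6 and Apln did not pass (limma adjusted p = 0.0571, 0.0716, 0.0548 and 0.0548).

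**Figure D1:**
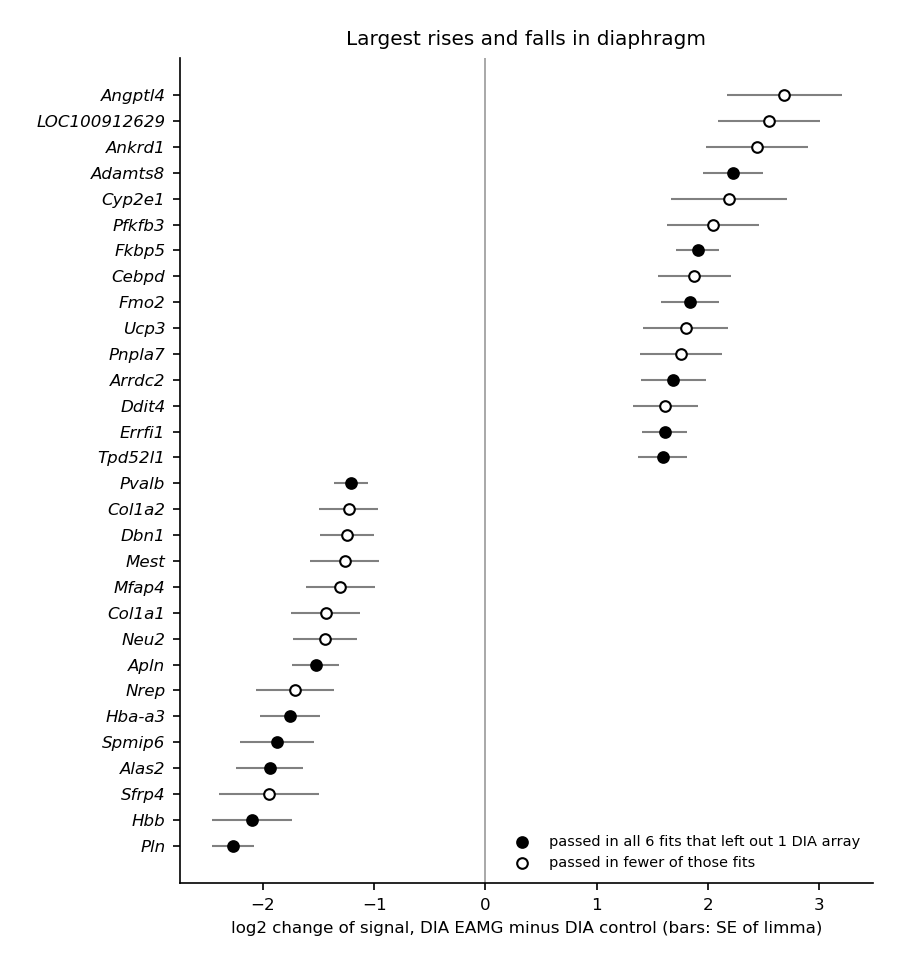
Log2 change of signal in diaphragm, EAMG minus control, for the 15 named genes with the largest rise and the 15 with the largest fall among those that passed limma with no overlap between groups. Points are differences of means of 3 arrays each and bars are the SE of limma, with Angptl4 highest at 2.69 and Pln lowest at -2.27, and filled points passed in all 6 fits that left out 1 DIA array.

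Among named genes that passed, the largest fall was that of Pln, phospholamban. Its signal was 585, 479.6 and 558 on the EAMG arrays and 2559, 2595 and 2670.2 on the control arrays. Every EAMG array was far below every control array, and both groups were tight. The means were 541 ± 54.8 in EAMG and 2608 ± 56.9 in control (SD, n = 3 each), a log2 change of -2.27 (SE 0.19, adjusted p = 3.2e-05, limma), so that the control signal was 4.84-fold that in EAMG. The fall passed in all 6 fits without 1 array (adjusted p up to 0.000497), in the fit of DIA alone (adjusted p = 0.00187) and without a signal minimum (adjusted p = 0.00121). A second, dimmer probe set of Pln (1388876_at) gave 340.3, 302 and 309 in EAMG against 715, 705 and 787 in control, a log2 change of -1.21 (SE 0.15, adjusted p = 0.00106).

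Pvalb, the calcium buffer parvalbumin of fast fibres, fell as well. It gave 7606, 6747 and 7271 on EAMG arrays and 15062, 18671 and 16482 on control arrays. The groups did not overlap, and the log2 change was -1.21 (SE 0.15, adjusted p = 0.00106, up to 0.00771 without 1 array). Of 34 tested genes of calcium handling, 0 rose and 3 fell, the remaining fall being that of Cacna2d1, a subunit of voltage-gated calcium channels (log2 change -0.47, adjusted p = 0.038). The list's median change was -0.13, and 10 members lay above 0. The calcium pumps did not pass, Atp2a1, the pump of fast fibres, having a log2 change of -0.14 (SE 0.17) and Atp2a2, the pump of slow fibres and heart, of -0.13 (SE 0.30). Jph2, a junctophilin that ties the surface membrane to the calcium store, gave 2591, 1747 and 2785 in EAMG against 3686, 4413 and 3589 in control, lower on every EAMG array without passing (log2 change -0.74, adjusted p = 0.0554). The Cacna2d1 call was lost in each fit without 1 array except that without DIA EAMG 1 (adjusted p up to 0.199).

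Of 15 tested genes of slow fibres, Pln fell and Csrp3, a muscle LIM protein of the Z-disc, rose. Myh7, the slow myosin heavy chain, gave 38978, 35067 and 42602 in EAMG and 38772, 40879 and 40087 in control. These groups overlapped, and the log2 change was -0.04 (SE 0.25, adjusted p = 0.941). The list's median was -0.13 with 3 of 15 above 0, and after quantile normalization -0.03 with 7 above 0.

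Fast fibre genes lay mostly a little below their control signals. Of 19 tested, 1 rose and 2 fell, and the median was -0.20 with 1 above 0 (-0.08 and 4 after quantile normalization). All EAMG arrays lay below all control arrays for 16 of them, against 11.3% of all named genes. Myh1, the myosin heavy chain of type IIx fibres, gave 14589.6, 13239 and 14874 in EAMG and 18819, 21264 and 19035 in control (log2 change -0.47, SE 0.12, adjusted p = 0.0483). Myh4, the heavy chain of the fastest type IIb fibres, gave 2191, 5311 and 3828 in EAMG against 4227, 11564 and 7283 in control. Its groups overlapped, since DIA EAMG 2 lay above control 1, and the difference between means of 3777 ± 1561 in EAMG and 7692 ± 3686 in control (SD, n = 3 each) did not pass (limma adjusted p = 0.0859). Mylk2, the kinase of skeletal myosin light chains, was higher at 3255, 5719 and 5841 in EAMG against 2496, 2789.7 and 2883 in control (log2 change 0.81, SE 0.19, adjusted p = 0.0272). The Myh1 and Mylk2 calls were lost in each fit without 1 array except that without DIA EAMG 1 (adjusted p up to 0.205 and 0.161).

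**Figure D2:**
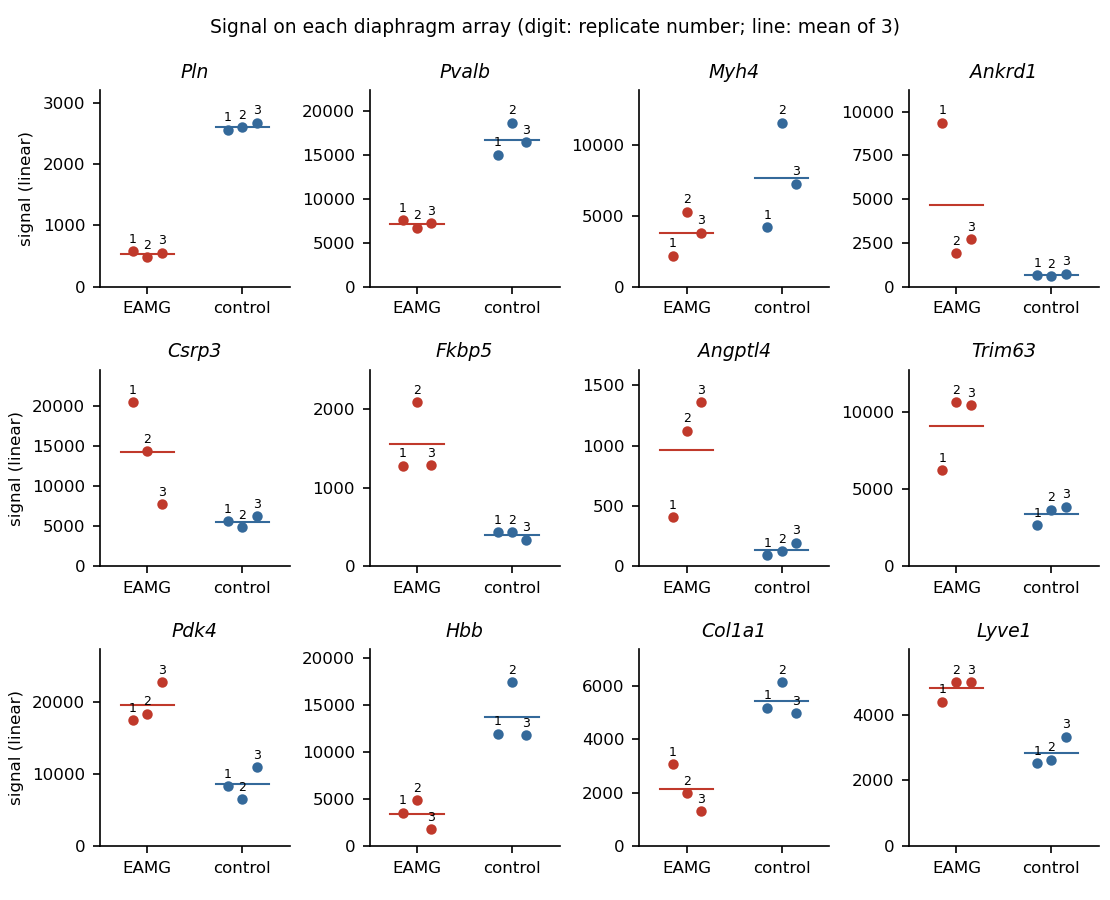
Signal on each diaphragm array (linear scale, EAMG left and control right in every panel) for 12 genes, with the replicate number over each point and a line at the mean of 3. Pln lies at 479.6 to 585 in EAMG and 2559 to 2670.2 in control, while the EAMG points of Ankrd1 spread from 1911 to 9358.

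Sarcomere genes known to respond to load and stretch rose in part. Ankrd1, an ankyrin repeat protein bound to titin, gave 9358, 1911 and 2711 in EAMG against 657, 603 and 761 in control, a log2 change of 2.44 (SE 0.46, adjusted p = 0.0112). Csrp3 gave 20456, 14398 and 7801 in EAMG against 5681, 4856 and 6228 in control (log2 change 1.25, SE 0.33, adjusted p = 0.0478). For both, all EAMG arrays lay above all controls and DIA EAMG 1, the array nearest the controls over all probe sets, was the highest. Ankrd2, a relative of Ankrd1, gave 3407, 1113 and 765 in EAMG and 564, 617 and 726 in control without passing (log2 change 1.17, SE 0.64, adjusted p = 0.306). Enc1, a kelch protein that binds actin, was more even, with 1067, 1118 and 1499 in EAMG and 489, 594 and 406 in control (log2 change 1.31, SE 0.17, adjusted p = 0.0013). The paper ties Enc1 to the growth of neuronal processes, not to the sarcomere, and states that it had not been seen in muscle before. Myoz3, a calsarcin of the Z-disc in fast fibres, fell by 0.85 on the log2 scale (adjusted p = 0.0167). Of 31 tested Z-disc and stress genes, 3 rose and 1 fell. Enc1 passed in every fit without 1 array. Ankrd1 lost its call without control 1 (adjusted p = 0.0554), Myoz3 without DIA EAMG 2, control 1 or control 3 (adjusted p up to 0.0907), and Csrp3 in each fit except that without DIA EAMG 3 (adjusted p up to 0.194).

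Glucocorticoids, the steroid hormones of the adrenal cortex, act through a receptor that binds DNA. In muscle they are known to slow protein synthesis, raise protein breakdown and shift fuel use toward fat. Of 29 tested genes on a list of their known targets, 15 rose (51.7%, against 2.35% of all named genes) and 0 fell. In all, 26 lay above 0. The median change of the list was 0.80 on the log2 scale, against 0.04 for all named genes tested, of which 55.2% lay above 0. All EAMG arrays lay above all control arrays for 21 of the 29, against 15.6% of all named genes. Since the list was written with earlier results of these data known, these shares describe the arrays and are no independent test. The number of rises was 14 without DIA EAMG 1, 5 without DIA EAMG 2, 9 without DIA EAMG 3, 5 without control 1, 11 without control 2 and 10 without control 3, and it was 4 in the fit of DIA alone and 5 without both arrays of low poly-A signal. Over the members, the median shift from the mean of the controls was 0.68, 1.02 and 0.92 on the EAMG arrays and -0.08, 0.10 and -0.01 on the control arrays.

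Fkbp5, a co-chaperone that lowers the affinity of the receptor for its hormone, gave 1281, 2086 and 1288 in EAMG against 435, 438 and 341 in control. This was a log2 change of 1.91 (SE 0.19, adjusted p = 0.000238), and the call passed in every fit without 1 array (adjusted p up to 0.00314) and in DIA alone (adjusted p = 0.0302). Errfi1, an inhibitor of the epidermal growth factor receptor, gave 3137, 3294 and 4411 in EAMG and 924, 1477 and 1173 in control (log2 change 1.61, SE 0.21, adjusted p = 0.00106). Fmo2, a flavin monooxygenase, gave 1009, 1516 and 1514 in EAMG and 360.4, 517 and 272 in control (log2 change 1.84, SE 0.26, adjusted p = 0.00187). In each of these the groups were well apart. Nfkbia, which keeps NF-κB out of the nucleus, was 3034, 2934 and 3783 in EAMG against 1011, 1798 and 1258 in control (log2 change 1.29, adjusted p = 0.00278). Txnip, which binds thioredoxin and limits glucose uptake, was 16497, 18457 and 16449 in EAMG against 9348, 9197 and 8736 in control (log2 change 0.91, adjusted p = 0.00229). All 5 genes passed in every fit without 1 array.

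Other members of the list varied more between arrays. Cebpd, a C/EBP transcription factor, gave 1433, 2734 and 2565 in EAMG against 407, 662 and 752 in control (log2 change 1.88, SE 0.33, adjusted p = 0.0091). Ddit4, an inhibitor of mTOR signalling, gave 2856, 3819 and 2532 in EAMG against 686, 1085 and 1284 in control (log2 change 1.62, SE 0.29, adjusted p = 0.0096). Both lost their call without DIA EAMG 2 or control 1 (adjusted p up to 0.0549 and 0.059). A second, dimmer probe set of Cebpd had a log2 change of 1.60 and did not pass (limma adjusted p = 0.132). Klf15, a transcription factor of muscle metabolism, gave 3513, 4782 and 4229 in EAMG and 2285, 2392 and 2712 in control without passing (log2 change 0.75, adjusted p = 0.0585). Tsc22d3, the leucine zipper protein GILZ, had a log2 change of 0.43 (adjusted p = 0.139) and Sgk1, a kinase, of 0.17 (adjusted p = 0.649). The receptor gene itself, Nr3c1, gave 2529, 1918 and 2501 in EAMG against 2800.0, 2954 and 2728 in control, lower on every EAMG array, with a log2 change of -0.30 that did not pass (SE 0.14, adjusted p = 0.235).

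**Figure D3:**
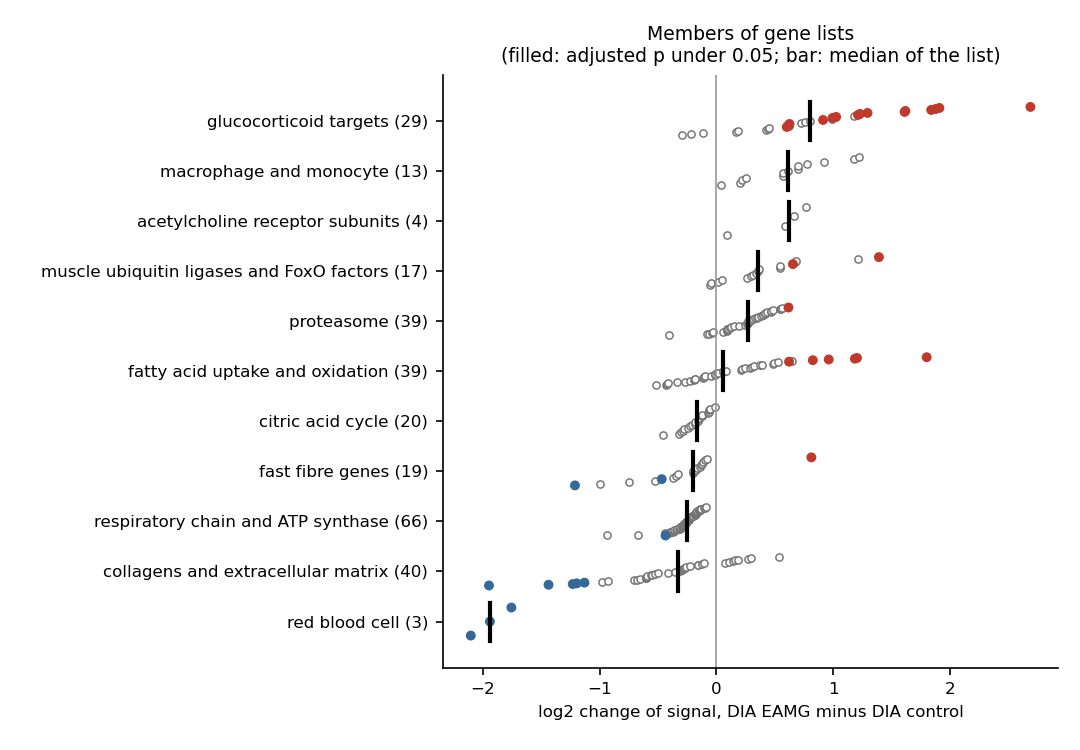
Log2 change in diaphragm, EAMG minus control, of each tested member of 11 gene lists, with the number tested in parentheses. Filled points passed limma (red higher, blue lower), open points did not, and the bar marks the list's median, which is 0.80 for glucocorticoid targets, -0.33 for collagens and extracellular matrix and -1.94 for red blood cell markers.

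Angptl4, a secreted inhibitor of lipoprotein lipase, had the largest rise among named genes that passed, at 406, 1124 and 1357 in EAMG against 94.7, 124 and 196 in control. All control arrays were below the minimum of 400 and DIA EAMG 1 only just above it, and the log2 change was 2.69 (SE 0.51, adjusted p = 0.012), or 2.04 with 100 added to each signal. Pdk4, the kinase that shuts off pyruvate dehydrogenase, gave 17464, 18354 and 22764 in EAMG against 8312, 6469 and 10924 in control (log2 change 1.21, SE 0.25, adjusted p = 0.0184). Pnpla2, the lipase that begins the breakdown of stored triglyceride, gave 4279.7, 6735 and 5212 in EAMG and 2499, 2320.1 and 2814 in control (log2 change 1.07, SE 0.18, adjusted p = 0.00688). Pnpla2 passed in every fit without 1 array. Angptl4 lost its call without a signal minimum (adjusted p = 0.0897), in DIA alone (adjusted p = 0.0578) and without DIA EAMG 2, DIA EAMG 3 or control 1 (adjusted p up to 0.072). Pdk4 lost its call without those arrays or control 2 (adjusted p up to 0.0725). A second, dimmer probe set of Pdk4 had a log2 change of 1.74 and did not pass (limma adjusted p = 0.119).

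The list of fatty acid uptake and oxidation had 39 tested genes, a median of 0.06 and 23 members above 0. Of the 39, 6 rose (15.4%, against 2.35% of all named genes) and 0 fell. They were Ucp3, a mitochondrial carrier of the uncoupling family (log2 change 1.80), Mlycd, which removes the malonyl-CoA that blocks fatty acid import (1.20), Acsl4, an acyl-CoA synthetase (1.19), Acad11, an acyl-CoA dehydrogenase (0.96), Slc27a1, a fatty acid transporter (0.82), and Decr1, a reductase for unsaturated fatty acids (0.62). Ucp3 gave 1585, 1596 and 2872 in EAMG against 498, 331 and 1044 in control (SE 0.38, adjusted p = 0.0196). Mlycd gave 2181, 3118 and 2851 in EAMG against 1083, 980.1 and 1498 in control (SE 0.24, adjusted p = 0.0149). Enzymes of the oxidation cycle itself did not pass, with log2 changes of -0.10 for Acadm, 0.01 for Hadhb, 0.25 for Acadl and 0.37 for Hadha. The count of 6 was also 6 without DIA EAMG 1, and it was 0 without DIA EAMG 2, DIA EAMG 3 or control 1, 1 without control 2 and 3 without control 3.

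Among 33 tested genes of lipolysis, lipoproteins and cholesterol, 5 rose and 0 fell. Besides Angptl4 and Pnpla2 they were Abca1, the cholesterol exporter (log2 change 1.13, adjusted p = 0.0175), Lpin1, a phosphatidate phosphatase (0.62, adjusted p = 0.0497), and Plin4, a coat protein of lipid droplets (0.60, adjusted p = 0.0497). The count was 4 without DIA EAMG 1, 1 without DIA EAMG 2 or control 1, 2 without DIA EAMG 3 or control 3 and 3 without control 2.

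Among 36 tested genes of glucose use, 3 rose (Pfkfb3, Pdk4 and Txnip) and 1 fell (Ldha), with a median of -0.12. Pfkfb3, which makes the sugar phosphate that drives glycolysis, gave 1802, 2454 and 2605 in EAMG against 325, 631 and 800.4 in control (log2 change 2.04, SE 0.41, adjusted p = 0.0162). Ldha, the muscle subunit of lactate dehydrogenase, gave 15094, 10836 and 13896 in EAMG and 19622, 19679.8 and 19788 in control (log2 change -0.58, SE 0.13, adjusted p = 0.0248). Slc2a4, the insulin-responsive glucose transporter, had a log2 change of -0.14 (adjusted p = 0.499). Pfkfb3 lost its call without DIA EAMG 2, DIA EAMG 3 or control 1 (adjusted p up to 0.082), and Ldha in each fit except that without DIA EAMG 1 (adjusted p up to 0.14).

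Genes of the mitochondrial respiratory chain and ATP synthase lay below their control signals by small amounts. All 66 tested members had a change below 0, from -0.94 to -0.09 on the log2 scale, with a median of -0.26 (-0.22 after quantile normalization, with 1 above 0). EAMG arrays lay below all control arrays for 39 of them, against 11.3% of all named genes. Only Ndufb5, a subunit of complex I, passed, at 22506, 16045 and 18462 in EAMG against 27116, 24374 and 25254 in control (log2 change -0.44, SE 0.12, adjusted p = 0.0497). That was 1.52% of the list, and 1.23% of all named genes fell. Without DIA EAMG 1 there were 12 falls, and without any other single array 0. All 20 tested genes of the citric acid cycle were also below 0, with a median of -0.17 and no call. Ppargc1a, a coactivator of mitochondrial genes, gave 2027, 2617 and 1104 in EAMG and 1426, 1894 and 1732 in control, with overlap (log2 change 0.11, SE 0.28).

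At the endplate, the antigen itself was of interest. Of 4 tested AChR subunits, 0 passed and all 4 lay above 0, with a median of 0.63. Chrna1, the α subunit that carries the main target of the antibodies, gave 883, 1017 and 988 in EAMG against 529.9, 608 and 689 in control (log2 change 0.67, SE 0.19, adjusted p = 0.0677). Chrnd, the δ subunit, gave 1179.7, 1795 and 1287 in EAMG against 776, 748 and 951 in control (log2 change 0.77, SE 0.21, adjusted p = 0.0594). Both were higher on every EAMG array without passing. Chrne, the ε subunit of the adult receptor, had a log2 change of 0.58 and Chrnb1, the β subunit, of 0.09, and their groups overlapped. Without DIA EAMG 1, 1 subunit passed, and without any other single array 0. Of 7 tested organizers of the endplate, 1 rose. It was Ptprs, a receptor tyrosine phosphatase, at 1342, 1916 and 1505 in EAMG against 655, 1084 and 829.6 in control (log2 change 0.91, adjusted p = 0.0264), and it lost its call without DIA EAMG 2, DIA EAMG 3, control 1 or control 3 (adjusted p up to 0.157). Rapsn, the scaffold that clusters AChR, had a log2 change of 0.16 (SE 0.19).

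Genes known to rise when muscle loses its nerve were mixed. Of 11 tested, Ankrd1 and Gadd45a rose, 0 fell and 9 lay above 0, with a median of 0.19. Gadd45a, a stress gene that drives nuclear changes in denervated muscle, gave 2451, 2755 and 2266 in EAMG against 1256, 880.5 and 1190.0 in control (log2 change 1.18, SE 0.19, adjusted p = 0.00533), and it passed in every fit without 1 array. Runx1, a transcription factor that sustains denervated muscle, gave 1059, 677 and 1403 in EAMG against 435, 457 and 504 in control without passing (log2 change 1.11, SE 0.31, adjusted p = 0.0593). The myogenic factors did not separate, Myog giving 1220.1, 1241 and 1379 in EAMG and 1222, 1018 and 1256 in control. Ampd3, an AMP deaminase, gave 1349.8, 1815 and 1805 in EAMG and 594, 564 and 701 in control, and its log2 change of 1.41 did not pass with all 18 arrays (adjusted p = 0.0855) but did in the fit of DIA alone (adjusted p = 0.0304).

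Muscle protein is broken down by the ubiquitin and proteasome system, by autophagy and by lysosomal proteases. Trim63, the ubiquitin ligase MuRF1 of wasting muscle, gave 6226, 10619 and 10418 in EAMG against 2685, 3684 and 3860.2 in control. The groups did not overlap, and the log2 change was 1.39 (SE 0.35, adjusted p = 0.0439). Fbxo32, the ligase atrogin-1, gave 517, 867 and 419 in EAMG and 198, 229 and 332 in control, higher on every EAMG array without passing (log2 change 1.21, SE 0.45, adjusted p = 0.139). Of 17 tested ligases and FoxO factors, 2 rose, Trim63 and Cblb, a ligase for signalling proteins (log2 change 0.65, adjusted p = 0.0302), and 15 lay above 0. Of 39 tested proteasome subunits, 34 lay above 0 with a median of 0.27, and only Psmd2, a subunit of the regulatory particle, passed (log2 change 0.61, adjusted p = 0.0272). That was 2.56% of the list, and 2.35% of all named genes rose. Without DIA EAMG 1, 10 proteasome subunits rose, and without any other single array 0. Trim63, Cblb and Psmd2 lost their calls in each fit except that without DIA EAMG 1 (adjusted p up to 0.195, 0.163 and 0.161).

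Of 27 tested autophagy genes, 2 rose and 0 fell. Depp1, a FoxO target that acts on autophagy, gave 3052, 3572 and 3817 in EAMG against 1402, 1889 and 1409 in control (log2 change 1.16, SE 0.21, adjusted p = 0.0096). Gabarapl1, which builds the autophagosome membrane, gave 2491, 2947 and 2432 in EAMG and 1575, 1641 and 1543 in control (log2 change 0.72, SE 0.18, adjusted p = 0.0439). Ctsl, the lysosomal protease cathepsin L, gave 7684, 11528 and 9779 in EAMG and 4979, 4875 and 5741 in control (log2 change 0.88, SE 0.20, adjusted p = 0.0272). In all 3 genes each EAMG array exceeded each control array. Depp1 lost its call without DIA EAMG 2 or control 1 (adjusted p up to 0.0576), and Gabarapl1 and Ctsl in each fit except that without DIA EAMG 1 (adjusted p up to 0.199 and 0.16). A second, dimmer probe set of Ctsl had a log2 change of 0.70 and did not pass (limma adjusted p = 0.0677).

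Because targets of the glucocorticoid receptor and of FoxO factors were among the rises, the letters of their binding motifs were searched on both strands in promoters, taken as 250 bases before to 50 bases after the start of each gene in RefSeq (GRCr8). Promoters were found for 5957 tested genes, of which 151 had risen and 78 had fallen. A relaxed receptor motif, GNACANNNTGTNC, stood in 0.422% of 27457 promoters, in 0.218% of those of tested genes and in 2 of the 151 that rose (1.32%), Fam107a and Trim63, and in 0 of the 78 that fell. It stood in 1 of 25 promoters of the glucocorticoid target list, that of Map3k6. The full palindrome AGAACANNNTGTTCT stood in 0 promoters of tested genes. A FoxO motif, GTAAACA, stood in 3.76% of all promoters, 2.37% of those of tested genes, 8 of the 151 (5.30%) and 3 of the 78 (3.85%). The E-box of clock factors, CACGTG, was searched as well. It stood in 6.65% of all promoters, 10.2% of those of tested genes, 18 of the 151 (11.9%) and 6 of the 78 (7.69%). Among the 25 promoters of the glucocorticoid target list it stood in 6 (24%). A match describes letters only and shows no binding. Both promoters with the receptor motif among the risen genes are shown 5′ to 3′ on the strand of the gene, with motif matches in capitals, Fam107a at chr15:19046331-19046630 (plus strand) and Trim63 at chr5:151816986-151817285 (plus strand).
Fam107a: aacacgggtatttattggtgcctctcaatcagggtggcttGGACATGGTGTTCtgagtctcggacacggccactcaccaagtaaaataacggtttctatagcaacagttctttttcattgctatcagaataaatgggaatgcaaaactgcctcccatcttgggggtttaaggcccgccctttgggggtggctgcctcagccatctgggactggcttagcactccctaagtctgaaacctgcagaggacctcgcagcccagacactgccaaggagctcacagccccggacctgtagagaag
Trim63: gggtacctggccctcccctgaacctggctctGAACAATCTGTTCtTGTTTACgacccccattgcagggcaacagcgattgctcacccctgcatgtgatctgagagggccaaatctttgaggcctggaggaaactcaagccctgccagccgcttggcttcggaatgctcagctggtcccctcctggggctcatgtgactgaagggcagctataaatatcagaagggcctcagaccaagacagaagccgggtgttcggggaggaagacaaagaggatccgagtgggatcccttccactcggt
In Fam107a the match GGACATGGTGTTC lay 210 to 198 bases before the start. In Trim63 the match GAACAATCTGTTC lay 219 to 207 bases before the start, and the FoxO motif, read on the other strand as TGTTTAC, followed after 1 base at 205 to 199. Fam107a, an actin-binding protein, gave 941, 987 and 1255 in EAMG against 362, 556 and 396 in control (log2 change 1.29, SE 0.23, adjusted p = 0.0096), and lost its call without control 1 (adjusted p = 0.0578).

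Of 16 tested genes of the cell cycle and of p53, Cdkn1a and Sesn1 rose and 0 fell, with a median of 0.07 and 8 above 0. Cdkn1a, the cell cycle inhibitor p21, gave 4219, 4898 and 6643 in EAMG against 1616, 2214 and 2587 in control (log2 change 1.30, SE 0.19, adjusted p = 0.00256). Among large rises outside the lists, Pim3, a serine kinase, gave 1526, 2136 and 1618 in EAMG against 536, 688 and 717 in control (log2 change 1.44, SE 0.19, adjusted p = 0.0013). Arrdc2, an arrestin domain protein, gave 4296, 3674 and 2949 in EAMG against 841, 1196 and 1377 in control (log2 change 1.69, SE 0.29, adjusted p = 0.00867). Cdkn1a, Pim3 and Arrdc2 passed in every fit without 1 array, and Sesn1 only in that without DIA EAMG 1 (adjusted p up to 0.201). Of 29 tested genes of insulin, IGF and mTOR signalling, 4 rose and 0 fell. They were Ddit4, Igfbp3, a binding protein for IGF (log2 change 1.21), Sesn1, an inhibitor of mTOR (1.14), and Eif4ebp1, which blocks the start of translation (1.05). The count was 6 without DIA EAMG 1 and 0 to 2 without any other single array.

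Signalling and stress lists held scattered calls. Of 19 immediate early factors, Zfp36, which destabilizes cytokine mRNA (log2 change 1.24, adjusted p = 0.0096), and Klf10, a TGF-β response factor (1.15, adjusted p = 0.0241), rose, while Fos gave 1024, 1408 and 1792 in EAMG and 1454, 2558 and 598 in control with wide overlap. Of 18 NF-κB and cytokine genes, 4 rose (Nfkbia, Il6r, Il15 and Il6st) and 1 fell, the chemokine Cxcl12 (log2 change -0.63, adjusted p = 0.0415). Of 24 interferon and antigen presentation genes, Oas1a, an antiviral synthetase, rose and Cd1d1, which presents lipids, fell. Each was 4.17% of the list, while 2.35% of all named genes rose and 1.23% fell. Oas1a gave 677, 762 and 550.1 in EAMG against 286, 368 and 289 in control (log2 change 1.07, adjusted p = 0.00775). Cd1d1 gave 709.7, 640.5 and 616 in EAMG against 1289, 1261 and 1271 in control (log2 change -0.96, adjusted p = 0.00524). Both genes passed in every fit without 1 array, while in the fit of DIA alone the interferon list had 0 rises and 1 fall. Of 31 heat shock and unfolded protein genes, Herpud1 rose, and the chaperones Hspa1a (log2 change -1.06, adjusted p = 0.0299) and Hsph1 fell. In these 4 lists, leaving out any single array other than DIA EAMG 1 left 0 to 2 rises and 0 or 1 falls per list.

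Of 33 antioxidant and detoxifying genes, 4 rose and 0 fell, namely Cyp2e1, Fmo2, Gpx3 and Gstm1. Cyp2e1, a cytochrome P450 best known from liver, gave 944, 4479 and 2725 in EAMG against 463, 475 and 552 in control (log2 change 2.19, SE 0.52, adjusted p = 0.0317). Its EAMG arrays spread widely, with DIA EAMG 2 the highest, and it lost its call in each fit except that without DIA EAMG 1 (adjusted p up to 0.186). Fmo2 passed in all of these fits, Gpx3 lost its call without DIA EAMG 2, control 1 or control 3 (adjusted p up to 0.12) and Gstm1 in each fit except that without DIA EAMG 1 (adjusted p up to 0.169). Without DIA EAMG 1 the list had 7 rises and 2 falls, and without any other single array 1 or 2 rises and 0 falls. Of 18 hepatocyte markers on the array 14 were below the minimum of 400 and Cyp2e1 alone rose, and the summed signal of the list was 2256 to 8746 on EAMG arrays and 1944 to 9035 on control arrays.

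Lists of amino acid metabolism and of transport held few calls. Of 27 genes of amino acid metabolism, Sat1, of polyamine breakdown, and Glul, glutamine synthetase, rose, and Gamt, of creatine synthesis, and Gpt, alanine transaminase, fell. Without DIA EAMG 2 there were 0 calls in this list, without DIA EAMG 3, control 1 or control 3 there were 0 rises and 1 fall, without control 2 there were 1 rise and 1 fall, and without DIA EAMG 1 there were 3 rises and 2 falls. Gamt, at 390.5, 232 and 288 in EAMG against 592, 668 and 669 in control (log2 change -1.11, adjusted p = 0.0096), lost its call without DIA EAMG 2 (adjusted p = 0.0563). Of 22 genes of excitability and transport, the amino acid transporters Slc43a2 and Slc38a4 and the potassium channel Kcnq5 rose, and Atp1b2, a sodium pump subunit, fell. Without DIA EAMG 2 or control 3 there were 0 calls in this list, without DIA EAMG 3 there were 1 rise and 2 falls, without control 1 there were 1 rise and 0 falls, without control 2 there were 1 rise and 1 fall, and without DIA EAMG 1 there were 5 rises and 5 falls.

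Several collagens of the connective tissue fell. Of 40 tested genes of collagens and extracellular matrix, 0 rose and 5 fell, with a median of -0.33 and 8 above 0. The falls were 12.5% of the list, against 1.23% of all named genes. Col1a1, a chain of type I collagen, gave 3078, 1991 and 1305 in EAMG against 5188, 6157 and 4979 in control (log2 change -1.44, SE 0.31, adjusted p = 0.0207). Col3a1, of type III collagen, gave 9062, 5599 and 5561 in EAMG against 14186, 14502 and 14394 in control (log2 change -1.13, SE 0.30, adjusted p = 0.0497). Col1a2, Col15a1 and the Wnt-binding protein Sfrp4 were the other falls, and all EAMG arrays lay below all controls in each of these genes. Sfrp4 gave 146, 53.9 and 108 in EAMG against 442, 308 and 358 in control, so that it reached the minimum of 400 through control 1 alone, and it did not pass without a minimum (adjusted p = 0.148). Serpinh1, the chaperone of collagen folding, gave 1985, 1438 and 1276 in EAMG against 2616, 2902 and 3381 in control (log2 change -0.94, adjusted p = 0.0112), and lost its call without DIA EAMG 2 or control 3 (adjusted p up to 0.062). The matrix list had 6 falls without DIA EAMG 1 and 0 without any other single array (adjusted p of Col1a1 up to 0.0911). Summed signal of fibroblast and tendon markers was 52377 to 58801 on EAMG arrays and 63823 to 73386 on control arrays, lower on every EAMG array. These markers include Col1a1 and Col3a1 themselves, so the sum is no separate measure of such cells. The part of such cells in the collagen result was not tested.

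Adamts8, a secreted protease of the matrix, was the largest rise of a named gene that held in every fit without 1 array. It gave 1272, 798 and 1854 in EAMG against 316, 238 and 243 in control, all controls being below the minimum of 400. The log2 change was 2.23 (SE 0.27, adjusted p = 0.000863, up to 0.00524 without 1 array).

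Transcripts of red blood cells fell together. Hbb, β-globin, gave 3540.5, 4903 and 1799.7 in EAMG against 11993, 17499.9 and 11820.2 in control (log2 change -2.10, SE 0.36, adjusted p = 0.00775). Hba-a3, an α-globin, gave 492, 412 and 399.8 in EAMG against 1259, 2113 and 1172 in control (log2 change -1.76, SE 0.27, adjusted p = 0.0033). Alas2, which starts heme synthesis in red cell precursors, gave 112, 146 and 52.9 in EAMG against 314, 486 and 321 in control (log2 change -1.94, SE 0.30, adjusted p = 0.00397). All 3 tested markers passed in every fit without 1 array. Alas2 reached the minimum of 400 through control 2 alone and did not pass in DIA alone (adjusted p = 0.0716), and Hbb passed neither there (adjusted p = 0.0571) nor without a minimum (adjusted p = 0.064). Globin genes are near-identical copies, so their probe sets may share transcripts. The markers Ahsp, Epb42, Hemgn and Slc4a1 were below the minimum on all 6 arrays, and the summed signal of the list was 2381 to 5540 on EAMG arrays and 13585 to 20232 on control arrays. Endothelial markers overlapped, at 14158 to 16494 on EAMG arrays and 13389 to 17831 on control arrays.

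**Figure D4:**
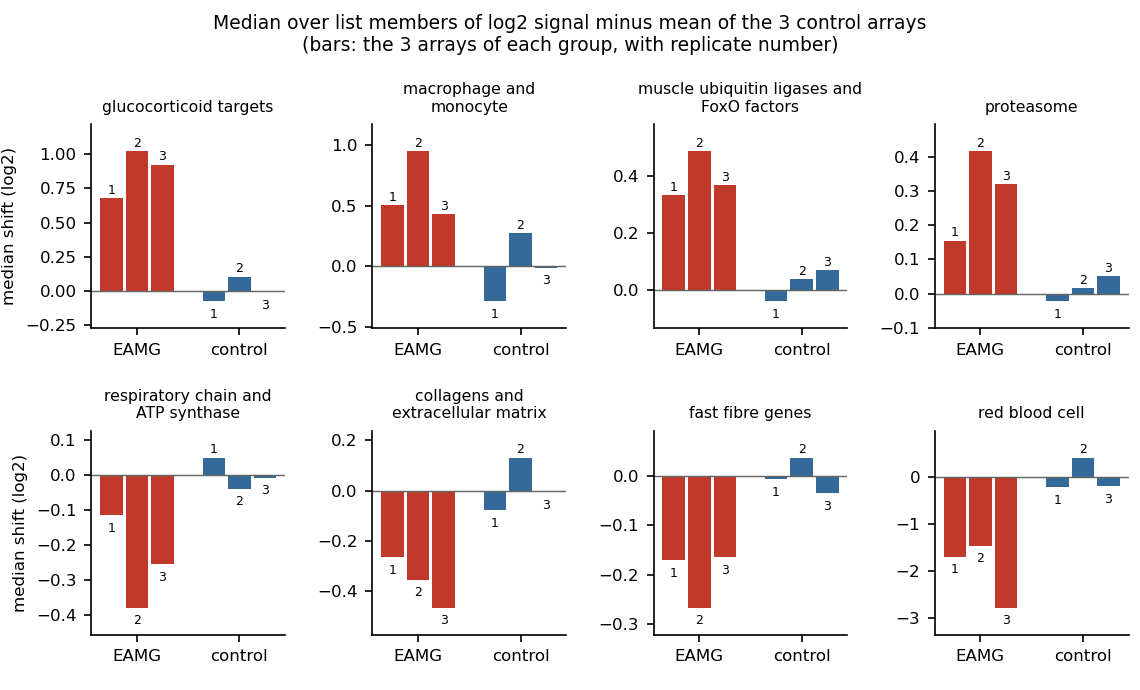
Median over the members of 8 gene lists of the log2 signal minus the mean of the 3 control arrays, for each diaphragm array (EAMG bars left, control bars right, replicate number at each bar). Glucocorticoid targets stand at 0.68, 1.02 and 0.92 on the EAMG arrays against -0.08, 0.10 and -0.01 on the controls.

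Markers of infiltrating cells gave no call. All 13 tested macrophage and monocyte markers lay above 0, with a median of 0.61, and 0 passed. All EAMG arrays lay above all control arrays for 8 of the 13, against 15.6% of all named genes. The summed signal of the 13, with that of the 9 members below the minimum, was 19210 to 25354 on EAMG arrays and 12266 to 16377 on control arrays, without overlap. Defining markers such as Adgre1, Cd68 and Itgam were below the minimum on all 6 arrays. Cd163, a scavenger receptor, gave 342, 806 and 371 in EAMG against 149.5, 289 and 206 in control (log2 change 1.17, adjusted p = 0.117), and Csf1r, a receptor of all such cells, 826, 918 and 816 in EAMG and 831, 867 and 790.4 in control with overlap. All 12 T cell markers were below the minimum, with sums of 931 to 1097 on EAMG arrays and 981 to 1201 on control arrays. Of 16 tested complement genes, 0 passed, with a median of 0.08. Neutrophil, Schwann cell, adipocyte and mesothelium markers also gave 0 calls. Of 8 smooth muscle and pericyte markers 1 fell (12.5%), and of 16 endothelial markers 1 rose (6.25%). Among all named genes 1.23% fell and 2.35% rose. Of 13 exocrine pancreas markers 12 were below the minimum, and the other, Cpa1, fell (log2 change -1.18). The summed signal of that list was 479 to 693 on EAMG arrays and 1019 to 1366 on control arrays. Its source was not tested.

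The change in diaphragm was compared with that in EDL, a fast limb muscle, and in EOM, which moves the eye, each with its own controls. By the methods, diaphragm, EDL and EOM were all dissected from the rats and pooled by group, so the muscles may share animals. The main fit took the arrays as independent, so the SE and p values of these differences ignore any sharing. The effect of shared rats on them was not tested. The difference between changes passed for 2 of 10745 probe sets against EDL (0.0186%) and for 2 against EOM (0.0186%), and these were both probe sets of Pln. The change of Pln was -2.27 in diaphragm, -0.36 in EDL and 0.08 in EOM. The difference was -1.92 against EDL (SE 0.27, adjusted p = 0.0242) and -2.36 against EOM (SE 0.27, adjusted p = 0.00216). For the second probe set it was -1.49 (adjusted p = 0.0242) and -1.71 (adjusted p = 0.00466). The difference from EDL passed in none of the 6 fits without 1 DIA array, nor without a signal minimum, whereas 2 to 4 probe sets passed against EOM in the 6 fits. In a fit with the replicate number as a block within each muscle, 0 probe sets passed against EDL and 0 against EOM. That block ties no arrays of different muscles, so it is no check on shared rats. Cyp2e1 (2.19 in diaphragm, 0.19 in EDL, 1.05 in EOM) and Adamts8 (2.23, 0.88 and 0.39) had larger changes in diaphragm whose difference did not pass.

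**Figure D5:**
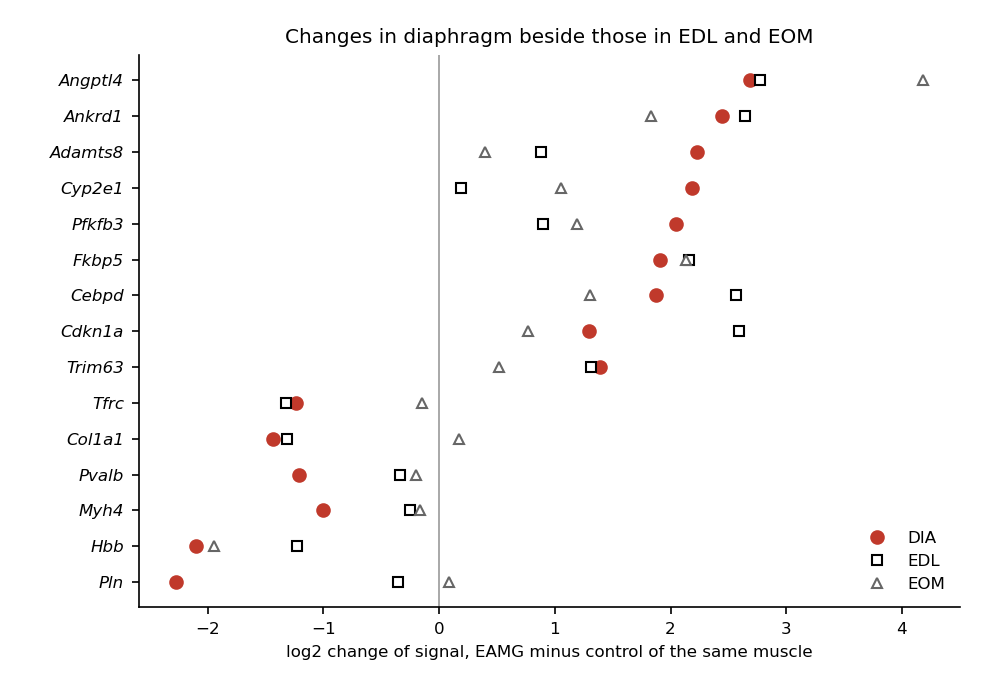
Log2 change of signal, EAMG minus control of the same muscle, for 15 genes in DIA (filled circles), EDL (squares) and EOM (triangles). Pln lies at -2.27 in DIA against -0.36 in EDL and 0.08 in EOM, while Fkbp5 lies at 1.91, 2.16 and 2.14.

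Of the 385 probe sets that passed, 291 had a single gene symbol. Among the others, 1370310_at rose by 3.47 on the log2 scale, the largest rise of all, at 192, 441 and 147 in EAMG against 18.4, 26.6 and 18.6 in control (adjusted p = 0.000816). Only DIA EAMG 2 exceeded the minimum of 400, and the change was 1.49 with 100 added to each signal. The probe set 1385444_at gave 229, 362 and 212 in EAMG against 1628, 1725 and 1773 in control (log2 change -2.72, SE 0.31, adjusted p = 0.000667). It reached the minimum on control arrays alone. Both probe sets passed in every fit without 1 array.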

How the data were processed

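Per the labels and methods, the authors hybridised each RNA pool to an Affymetrix rat array and computed probe set signals with GCOS 2.0, and the deposited values are intensities on a linear scale, each array scaled to a common trimmed mean. Here log2 of the deposited intensity was tested with limma 3.58.1 (R 4.3.3; lmFit and eBayes, 1 mean per muscle and treatment, 18 arrays), with Benjamini-Hochberg adjustment over 10745 probe sets. Array control probe sets (57) were left out. The fit was tested on simulated data. With 3 arrays against 3, the smallest exact two-sided p is 0.1, so single values were tested only within the fit, and the number of arrays limits the precision. A gene stands for its probe set, of 1 symbol, with the highest mean signal over the 6 DIA arrays. Symbols come from the platform annotation, updated through RefSeq GRCr8 for 20758 probe sets, and 9780 have none. Named are the 15 largest rises and falls that passed without overlap, per list up to 6 members that passed (otherwise the largest 2), part of the genes the study tabulates and defining cell type markers. Fam107a, Oas1a, Cd1d1, the unnamed probe sets and the members given as not passing beside them were chosen after their values were seen. The comparison, the 48 gene lists and the members were chosen with earlier results of these data known. Alternatives changed the signal minimum, scaling, pseudocount, arrays, array weights, variance trend and replicate block. Promoters came from RefSeq GRCr8. Figures used matplotlib 3.10.9.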

Additional observations from a re-analysis of the deposited data

Results flagged for a closer look

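The change of Pln, phospholamban, in diaphragm differed from its change in the other muscles by a test of the difference itself (limma, all 18 arrays). That test took the arrays as independent, although the muscles may come from the same rats. For the brighter probe set the difference was -1.92 on the log2 scale against EDL (adjusted p = 0.0242) and -2.36 against EOM (adjusted p = 0.00216). For the dimmer probe set of Pln it was -1.49 against EDL (adjusted p = 0.0242) and -1.71 against EOM (adjusted p = 0.00466). Against EDL, 0 probe sets passed in any of the 6 fits without 1 DIA array, without a signal minimum or without both arrays of low poly-A signal, so the call against EDL was lost in each of these. With the replicate number as a block within each muscle, 0 probe sets passed against EDL and 0 against EOM. That block does not address sharing of rats between muscles.

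Among array control probe sets, which enter no comparison, the 3' to 5' signal ratio of GAPDH was 2.66 on DIA EAMG 3, above the 1.19 to 1.33 of the other 5 DIA arrays. Among probe sets below the signal minimum on every DIA array, Lrmda (1396323_at) gave 230, 220 and 216 in EAMG against 54.4, 83.7 and 88.9 in control, a log2 change of 1.59 that passed in the fit without a minimum.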

How the results depend on the processing

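With all 18 arrays, 230 probe sets were called higher and 155 lower in EAMG diaphragm, and 2 differed in their change from EDL and 2 from EOM. Without a signal minimum these counts were 20, 16, 0 and 1, and in the 6 DIA arrays alone 26 were higher and 23 lower. Leaving out 1 DIA array at a time gave 36 to 484 higher and 24 to 404 lower, 0 in every fit against EDL and 2 to 4 against EOM. When both arrays with little poly-A control signal were dropped, a choice made after seeing the data, the counts were 35, 25, 0 and 5. Against EDL, array weights gave 1, and against EOM quantile normalization gave 5 and adding 100 to each signal gave 6. The rule of 7 of 9 ratios (48 higher, 34 lower) gave 208 and 688 without a minimum, 31 and 17 with 100 added, 17 and 17 with all 9 ratios, and 38 to 80 higher and 29 to 80 lower without 1 array. A fit with the replicate number as a block within each muscle gave 281 higher, 217 lower, 0 against EDL and 0 against EOM. Deviations of same-numbered EAMG and control arrays correlated at 0.22, 0.19 and -0.04, and replicates 1 and 2 but not 3 correlated best with their own number. These values do not settle whether same-numbered arrays are pairs. The main fit did not pair them, as no source ties a replicate number to a run. Of 95 named genes that passed, 95 also passed with 100 added or a variance trend, 18 in DIA alone, 14 without a minimum and 26 without DIA EAMG 2, and 21 in all 6 fits without 1 array. None of these 95 reversed under the alternatives run, and this was not examined for the other called probe sets. The cause of the lost calls was not tested.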
